A study of Mus musculus with 6 samples.

Results

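The 46 genes described here encode proteins of DNA replication and S phase, the part of the cell cycle in which the genome is copied. They were chosen by symbol for their function, and all 46 were found among the 53819 genes listed in the deposited tables. They fall into 10 groups by role, namely 4 genes of origin recognition and licensing, 7 of the MCM helicase, 5 of CDC45 and GINS, 6 of the sliding clamp and its loader, 9 of the polymerases and primase, 4 of strand binding and Okazaki fragment joining, 4 of nucleotide supply, 3 of chromatin assembly and DNA methylation upkeep, 3 of repair and checkpoint signalling, and the transcription factor E2f1. The measurements were bulk RNA-seq read counts from healing flexor digitorum longus (FDL) tendons of mice, with 1 tendon per library and 3 libraries in each of 2 groups. The DTR group had the genotype Scx-Cre+; DTR F/+, in which Cre driven by Scx switches on the diphtheria toxin receptor in cells of the Scx lineage and their descendants. The WT group had the genotype Scx-Cre-; DTR F/+, so that these control tendons carried the same receptor allele without Cre. Both groups underwent flexor tendon surgery at 10-12 weeks of age and received 5 daily local injections of 100 ng diphtheria toxin (DT) from D14 to D18 post-surgery. Tendons were collected at D28 post-surgery, although in the titles of the samples the 28 days run from depletion. The comparison therefore asks how transcript levels in the healing tendon differ about 2 weeks after toxin was given to mice with and without toxin-sensitive Scx lineage cells. Each library is a whole tendon, and in such bulk samples fewer cycling cells and less RNA per cell cannot be told apart.

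A replicating cell first marks its origins. The origin recognition complex binds DNA, and Cdc6 and Cdt1 load the ring of Mcm2-7 helicases. Kinases then recruit Cdc45 and GINS, which turn the ring into an active helicase, while polymerase alpha with primase starts each strand and polymerases delta and epsilon extend it on the Pcna clamp. Many of these genes are transcribed shortly before and during S phase under the control of E2F factors, whereas many genes of mitosis are transcribed later and carry NF-Y boxes (CCAAT) and cell cycle homology region (CHR) elements. In healing tendon, proliferation of fibroblasts and of infiltrating cells accompanies the filling of the gap between the tendon ends.

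Promoter sequence shows what many of these genes share beyond their function. The sequences are those of RefSeq (build GRCm38.p6), from 250 bases before to 50 bases after each start, and 39 of the 46 genes were found there, with 45 promoters. The genes without an entry in that table were Mcm4, Gins1, Gins2, Gins4, Rfc2, Pole and Prim2. The letters searched on both strands were TTTCGCGC, TTTGGCGC, TTTCCCGC and TTTGCCGC (E2F type), CCAAT (NF-Y type) and TTTGAA (CHR type). The E2F-type words can overlap each other on opposite strands. At least 1 E2F-type word was present in 17 of the 45 promoters (37.8%), against 2.26% of all 32851 promoters in the table. The NF-Y-type letters were in 57.8% of the 45 promoters and in 37.4% of all promoters, and the CHR-type letters were in 11.1% and 17.9%. Base composition was not matched between the lists. Stretches of 5 such promoters are printed below 5′ to 3′ along the strand of the gene, with the E2F-type letters or their reverse complement in capitals. They were picked to show single, overlapping and repeated words in genes of licensing (Orc1), helicase (Mcm5, Mcm6), polymerase (Pola1) and repair (Brca2). The Orc1 stretch lies at chr4:108579416-108579445 on the plus strand and overlaps an annotated exon of that gene. The Mcm5 stretch lies at chr8:75109329-75109388 on the plus strand and the Mcm6 stretch at chr1:128359736-128359835 on the minus strand. The Pola1 stretch lies at chrX:93632266-93632325 on the minus strand and the Brca2 stretch at chr5:150522421-150522480 on the plus strand, and the last 4 stretches overlap no annotated exon.
Orc1: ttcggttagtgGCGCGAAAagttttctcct
Mcm5: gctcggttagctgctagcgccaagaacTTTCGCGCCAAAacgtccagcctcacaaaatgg
Mcm6: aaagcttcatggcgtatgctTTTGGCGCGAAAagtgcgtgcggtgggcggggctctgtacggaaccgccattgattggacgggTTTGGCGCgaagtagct
Pola1: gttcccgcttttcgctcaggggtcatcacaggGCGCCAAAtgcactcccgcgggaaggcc
Brca2: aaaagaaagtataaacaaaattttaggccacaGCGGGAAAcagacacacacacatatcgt

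Mcm5 has 2 words that overlap on opposite strands, and Mcm6 has such a pair and a further word nearer the start. In Orc1 the first base of the word lies 27 bases before the start. For comparison, 30 bases of the promoter of Cdk1, the kinase that drives entry into mitosis, are shown with the CHR-type letters in capitals. This gene was chosen after the values were seen. The stretch lies at chr10:69352913-69352942 on the minus strand and overlaps an annotated exon of Cdk1.
Cdk1: ctttaccgcggcgagTTTGAAactgctggc

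Among the 27 promoters found for 26 genes of a list of 30 mitosis genes, 11.1% held E2F-type letters, 85.2% the NF-Y type and 77.8% the CHR type. Among the 72 promoters found for 61 of 81 other S phase genes, the shares were 29.2%, 45.8% and 16.7%. A match describes letters in a window and does not show that a factor binds there.

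**Figure D1:**
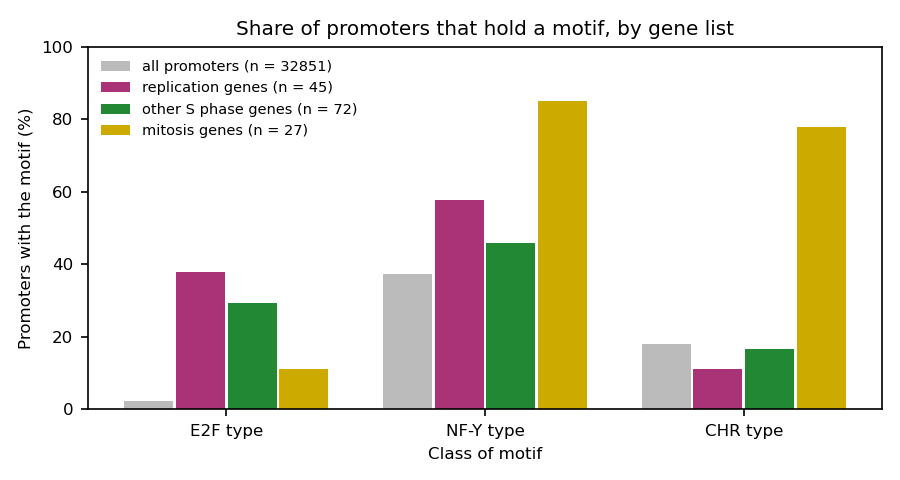
Share of promoters (%) that hold letters of each class on either strand, for all promoters, the replication genes, other S phase genes and mitosis genes. The replication genes stand at 37.8% for the E2F type against 2.26% of all promoters, and the mitosis genes at 77.8% for the CHR type against 17.9%.

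Total counts were 45184255, 47570157 and 44104578 for WT replicates 1 to 3, and 47125566, 48854310 and 42744138 for DTR replicates 1 to 3. Tendon cell markers were abundant in every library. Scx, the transcription factor whose lineage the toxin targeted, had normalized counts of 2201, 2703 and 3063 in WT and of 3475, 3406 and 3531 in DTR tendons, and Tnmd, a membrane protein of tendon cells, had 50498, 58598 and 76019.7 (WT) and 60343, 92191 and 75977 (DTR). Normalized counts are counts scaled to the mean library size with TMM factors. All 3 DTR libraries were above all 3 WT libraries in Scx, while the groups overlapped in Tnmd (edgeR adjusted p = 0.371 and 0.609). A list of 10 tendon cell markers held 3.88%, 4.24% and 4.56% of the WT counts and 5.66%, 4.31% and 5.37% of the DTR counts. Its highest mean normalized count was in Col1a2. Of the 10 genes, 8 were fitted higher in DTR tendons and 2 lower, Fmod and Comp (log2 fold change -0.17 and -0.18). At an unadjusted p under 0.05 edgeR had 3 higher, where 5.52% of all genes tested were, and at an adjusted p it called 0. DESeq2 called 1 higher, Thbs4 (adjusted p = 5.94e-05), where it called 1.12% of all genes higher.

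Transcripts of other tissues set some libraries apart. The 20 genes of a skeletal muscle list made up 2.87%, 2.58% and 2.09% of all counts for WT replicates 1 to 3, and 0.359%, 2.53% and 0.680% for the DTR replicates. DTR replicates 1 and 3 were thus low in muscle transcripts, and DTR replicate 2 was at the level of the WT libraries. All 20 muscle genes were fitted lower in DTR tendons, 0 of them at an unadjusted p under 0.05 in edgeR, where 5.45% of all genes tested were lower. The fast myosin Myh1 had the highest mean normalized count of the list, not scaled for length. Its values were 176617, 150978 and 123736 in WT and 16781, 134348 and 37622 in DTR tendons. A list of 13 keratinocyte genes held 0.312% and 0.193% of the counts in WT replicates 1 and 2, 0.0295% in DTR replicate 3 and no more than 0.00172% elsewhere. All 13 were fitted lower in DTR tendons and 0 had an unadjusted p under 0.05 in edgeR, against the same 5.45% of all genes tested. The most abundant was Krt10, with normalized counts of 65157, 47485 and 174 in WT and of 179, 218 and 3469 in DTR tendons, and Krt14, a defining keratin of the basal epidermis, had a count of 0 in WT replicate 3 and in DTR replicate 2. Of 7 red cell genes, led by Hbb-bs, 5 were tested and all 5 were fitted lower. All 5 had an unadjusted p under 0.05 in edgeR, where 5.45% of all genes tested were lower. At an adjusted p under 0.05, edgeR called 0 of them. DESeq2 called 4 of them lower, where it called 269 of 17564 genes lower. The 5 genes held 0.00962%, 0.0125% and 0.0217% of the counts in WT and 0.00546%, 0.00890% and 0.00563% in DTR tendons. Macrophage genes, led by Lyz2, held between 0.378% and 0.463% of the counts of every library. The 8 endothelial genes, led by Pecam1, were fitted at a median of -0.060 on the log2 scale, and the 10 lymphocyte genes, led by Cd4, one of -0.13. Xist was high in WT replicate 2 and in DTR replicates 2 and 3, and the Y-linked Ddx3y was detected in the other libraries, so that 1 of the 3 WT and 2 of the 3 DTR tendons came from females by these transcripts.

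All 46 genes passed the filter on low counts and were among the 17496 genes tested. In DTR tendons, 40 of the 46 were fitted higher and 6 lower, where 51.5% of all genes tested were fitted higher. The median log2 fold change (DTR over WT) was 0.24 over the 46 genes and 0.0082 over all genes tested, and single genes ranged from -0.28 in Pold2, an accessory subunit of polymerase delta, to 1.02 in Orc1, the large subunit of the origin recognition complex. None of these differences passed the adjusted threshold. edgeR's quasi-likelihood test called 0 of the 46 genes at an adjusted p under 0.05 (percent of all genes called, 0), and DESeq2 also called 0, where it called 1.12% of all genes higher. The smallest adjusted p among the 46 was 0.36 in edgeR (Rrm1) and 0.117 in DESeq2 (Clspn). At an unadjusted p under 0.05, edgeR had 9 of the 46 genes higher (Orc1, Mcm2, Gins2, Pola1, Pole, Rrm1, Tyms, Brca2 and Clspn), where 5.52% of all genes tested were, and 1 lower (Pold2), where 5.45% were. DESeq2 had 11 higher at its own unadjusted p, where 5.56% of the genes it tested were. Every DTR library was above every WT library in 11 genes (background 8.96%) and below in 1 gene (background 7.85%). The count of 9 was 2 (Rrm1 and Clspn) without WT replicate 2, 3 without DTR replicate 1 and 5 without DTR replicate 3, while the share of all genes was 2.81%, 3.5% and 4.12% in these fits. With the skeletal muscle level as a covariate it was 0 (3.24% of all genes) and the median was 0.14, and with the sex of the library as a covariate it was 18 (6.44%) and the median was 0.33.

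**Figure D2:**
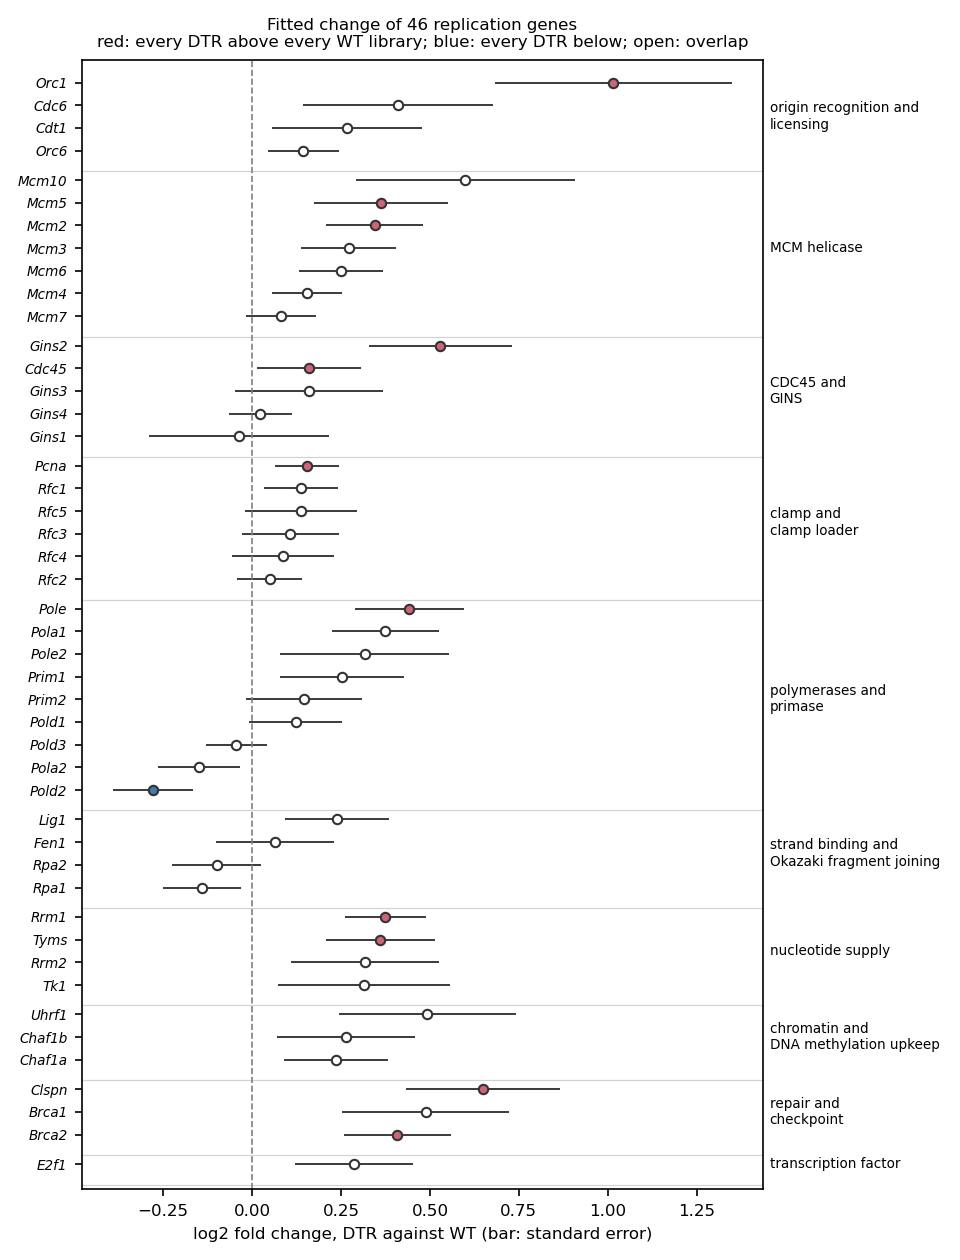
Log2 fold change of each of the 46 genes (points) with its standard error (bars), grouped by role, from edgeR with 3 DTR and 3 WT libraries. Values run from -0.28 (Pold2) to 1.02 (Orc1), and filled points mark the 11 genes with every DTR library above every WT library and the 1 gene with every DTR library below.

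All 4 genes of origin recognition and licensing were fitted higher, and their median log2 fold change was 0.34 (0.17 without DTR replicate 3). Orc1 had normalized counts of 33.5, 16.9 and 26.0 in WT and of 54.6, 49.7 and 50.3 in DTR replicates 1 to 3. The groups did not overlap, and each DTR library had more than every WT library although counts were low. The log2 fold change was 1.02 (standard error 0.33, unadjusted p = 0.0167, edgeR adjusted p = 0.386), and without WT replicate 2, the lowest library, it was 0.79. Orc6, the smallest subunit of the complex and the most abundant transcript of this group, had normalized counts of 863, 822 and 962 in WT and of 919, 986 and 1019 in DTR tendons, and DTR replicate 1 lay within the WT range (log2 fold change 0.14, standard error 0.10, edgeR adjusted p = 0.606). The helicase loaders Cdc6 and Cdt1 were fitted 0.41 and 0.27 higher on the log2 scale, and in both the groups overlapped.

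All 7 MCM genes were fitted higher, with a median log2 fold change of 0.27 (0.16 without WT replicate 2 and 0.14 with the skeletal muscle covariate). Mcm2, a subunit of the helicase ring, had normalized counts of 595, 473 and 613 in WT and of 753, 733 and 646 in DTR tendons, and Mcm5, its neighbour in the ring, had 462, 316 and 504 (WT) and 597, 509.7 and 541 (DTR). In both genes WT replicate 2 was the lowest library and every DTR library was above every WT library. Their log2 fold changes were 0.34 (standard error 0.14, edgeR adjusted p = 0.442) and 0.36 (standard error 0.19, edgeR adjusted p = 0.506), and without WT replicate 2 they were 0.24 and 0.19. Mcm6 had the highest mean normalized count of the 7, a ranking that is not scaled for length. Its values were 1444, 1289.6 and 1714 in WT and 1841, 1651 and 1798 in DTR tendons, with DTR replicate 2 below WT replicate 3. Mcm10, which is not part of the ring and helps to activate it, had the largest fitted difference of this group, with 144, 82.8 and 84.2 in WT and 189, 117 and 166 in DTR tendons. Its DTR replicate 2 lay below WT replicate 1, and its log2 fold change was 0.60 (standard error 0.31, edgeR adjusted p = 0.502). Without WT replicate 1 this value was 0.91, and with the skeletal muscle covariate 0.25. The smallest was in Mcm7, with 1027, 896 and 954 in WT and 1091, 993 and 957 in DTR tendons (log2 fold change 0.080), and Mcm3 and Mcm4 were fitted at 0.27 and 0.15.

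Of the 5 genes of CDC45 and GINS, 4 were fitted higher and the median log2 fold change was 0.16. It was 0.041 without DTR replicate 3, 0.095 without WT replicate 2 and 0.036 with the skeletal muscle covariate. Gins2 had normalized counts of 339, 211 and 263 in WT and of 407, 357 and 409 in DTR tendons, with no overlap (log2 fold change 0.53, standard error 0.20, edgeR adjusted p = 0.429). Exons of Gse1 on the opposite strand cover 67.3% of the Gins2 exon length in GENCODE M21, and whether the counting used strand is not given in the sources used here, so this value is uncertain. Cdc45 had 313, 273 and 318 in WT and 320.4, 335 and 354 in DTR tendons. Its groups did not overlap either, but WT replicate 3 and DTR replicate 1 were nearly equal, and the log2 fold change was 0.16 (standard error 0.15). The other GINS subunits showed fitted differences smaller than their errors. Gins1 had normalized counts of 224, 124 and 174 in WT and of 154, 167 and 188 in DTR tendons, where all 3 DTR libraries lay inside the WT range, and its log2 fold change of -0.037 (standard error 0.25) changed sign under several other settings, limma-voom among them. Gins4, the most abundant of the 5, had 966, 892 and 1004 (WT) and 975, 986 and 947 (DTR), and its log2 fold change of 0.023 changed sign when libraries were scaled by their totals alone. Gins3 was fitted at 0.16 with overlapping groups.

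All 6 genes of the clamp and its loader were fitted higher. The log2 fold changes lay between 0.049 and 0.15, with a median of 0.12, and without WT replicate 2 the median was 0.021. At an unadjusted p under 0.05 edgeR had 0 of the 6 higher, where 5.52% of all genes tested were. Pcna, the ring that tethers polymerases to DNA and a common stain for proliferating cells, had normalized counts of 1918, 1665 and 1906 in WT and of 1973, 2144 and 1993 in DTR tendons. Every DTR library was above every WT library, by a small margin, and the log2 fold change was 0.15 (standard error 0.089, edgeR adjusted p = 0.535). Rfc1, the large subunit of the clamp loader, had 1853, 1735 and 2142 in WT and 2222, 2135 and 1949 in DTR tendons, and Rfc2, a small subunit, had 1136, 1073 and 1254 (WT) and 1176, 1191 and 1217 (DTR). In both genes the groups overlapped (log2 fold change 0.14 and 0.049). Rfc3, Rfc4 and Rfc5 were fitted at 0.11, 0.087 and 0.14.

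**Figure D3:**
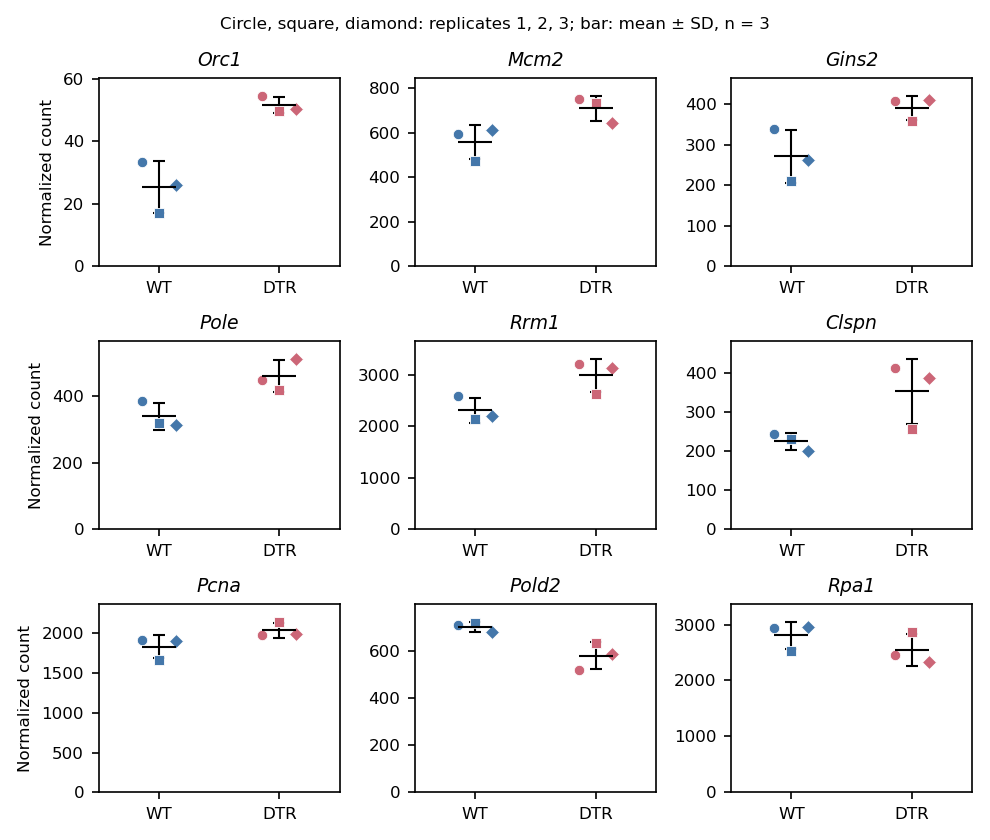
Normalized counts of 9 genes in each WT and DTR library, with circles, squares and diamonds for replicates 1, 2 and 3 and the mean ± SD (n = 3) as bars. Orc1 has the widest gap between groups relative to its level, in Pcna the gap is small, Pold2 is lower in every DTR library than in every WT library, and Rpa1 overlaps.

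Among the polymerases and primase, 6 genes were fitted higher and 3 lower, with a median log2 fold change of 0.15 (0.28 without WT replicate 3). Pole, the catalytic subunit of polymerase epsilon, which extends the leading strand, had normalized counts of 386, 319 and 314 in WT and of 450.2, 419.8 and 514 in DTR tendons. The groups did not overlap, and the log2 fold change was 0.44 (standard error 0.15, unadjusted p = 0.0211, edgeR adjusted p = 0.401). Pola1, the catalytic subunit of polymerase alpha, had 482, 444 and 601 in WT and 720.1, 668 and 591 in DTR tendons, so that DTR replicate 3 was below WT replicate 3 (log2 fold change 0.37, standard error 0.15, unadjusted p = 0.0381). Pold2 was fitted in the other direction. It had normalized counts of 712, 721 and 681 in WT and of 520.3, 634 and 589 in DTR tendons. Every DTR library was below every WT library and DTR replicate 1 was the lowest (log2 fold change -0.28, standard error 0.11, edgeR adjusted p = 0.447). With the skeletal muscle covariate the log2 fold change was -0.14. Pold3, a further subunit of polymerase delta, had the highest mean normalized count of this group, not scaled for length. Its values were 1089, 1011 and 1075 in WT and 1061, 981 and 1038 in DTR tendons with overlapping groups (log2 fold change -0.044). Polymerase delta genes thus gave fitted values on both sides of 0, with Pold1, the catalytic subunit of delta, at 0.12. Both epsilon genes were above 0, with Pole2 at 0.32. Pola2, Prim1 and Prim2, the partners of Pola1 in the primase complex, were fitted at -0.15, 0.25 and 0.15, and Prim2 was at 0.014 without WT replicate 2.

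The genes of strand binding and Okazaki fragment joining were the only group with a median below 0 (-0.018), and this sign changed with the fit, since the median was 0.040 with the keratinocyte level as a covariate and 0.082 without WT replicate 1. Rpa1, the large subunit of the protein that coats single-stranded DNA, was the most abundant of this group in normalized counts. It had 2941, 2529 and 2958 in WT and 2448, 2866 and 2329 in DTR tendons, where DTR replicates 1 and 3 lay below every WT library and DTR replicate 2 within them (log2 fold change -0.14, standard error 0.11, edgeR adjusted p = 0.639). Its partner Rpa2 was fitted at -0.10. Lig1, the ligase that joins Okazaki fragments, had 606, 502 and 657 in WT and 767, 596 and 719 in DTR tendons, with DTR replicate 2 within the WT range. Its log2 fold change was 0.24, but 0.14 without WT replicate 2, 0.16 without DTR replicate 1 and 0.022 with the skeletal muscle covariate. Fen1, the nuclease that trims them, was fitted at 0.064, and the antisense gene Gm10143 covers 78.8% of its exon length, which makes this value uncertain.

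All 4 genes of nucleotide supply were fitted higher and within a narrow range, from 0.31 to 0.37, with a median of 0.34. Rrm1, the large subunit of ribonucleotide reductase, had normalized counts of 2580.4, 2139 and 2195 in WT and of 3211, 2616 and 3132 in DTR tendons. Every DTR library was above every WT library, although WT replicate 1 and DTR replicate 2 were close. The log2 fold change was 0.37 (standard error 0.11, unadjusted p = 0.012, edgeR adjusted p = 0.36), the smallest p among the 46 genes. Tyms, which makes thymidylate, had 504, 443 and 587 in WT and 758, 619.7 and 593 in DTR tendons, where the lowest DTR library, replicate 3, was just above the highest WT library (log2 fold change 0.36, standard error 0.15, edgeR adjusted p = 0.453). Tk1, the thymidine salvage kinase, had 361, 270.2 and 327 in WT and 450.2, 267 and 476 in DTR tendons, with DTR replicate 2 below all WT libraries (log2 fold change 0.31). Without DTR replicate 2 this was 0.54, without DTR replicate 3 it was 0.17 and without WT replicate 2 it was 0.21. With the skeletal muscle covariate it was -0.18. Rrm2, the cell cycle regulated subunit of the reductase, likewise had its lowest DTR level in replicate 2, below 2 of the 3 WT libraries, and was fitted at 0.32. With the skeletal muscle level as a covariate, the median of the 4 genes was 0.049 and Tk1 was fitted at -0.18.

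The 3 genes of repair and checkpoint signalling were all fitted higher, at a median of 0.49 on the log2 scale (0.24 with the skeletal muscle covariate). Clspn, the adaptor that passes the stalled fork signal to the checkpoint kinase Chk1, had normalized counts of 244, 233 and 199.5 in WT and of 414, 257 and 388 in DTR tendons. The groups did not overlap, and DTR replicates 1 and 3 were well above DTR replicate 2, which was close to WT replicate 1. Its log2 fold change was 0.65 (standard error 0.22, unadjusted p = 0.0182, edgeR adjusted p = 0.389). Brca2, which loads the recombinase of homologous repair, had 311, 307 and 317 in WT and 444, 352 and 444 in DTR tendons. The WT libraries were within a few counts of each other and all DTR libraries were above them (log2 fold change 0.41, standard error 0.15, edgeR adjusted p = 0.422). Brca1 was fitted at 0.49 with overlapping groups.

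The 3 genes of chromatin upkeep were fitted higher, with a median log2 fold change of 0.26 and overlap in every gene. The median was 0.16 without WT replicate 2, 0.41 without DTR replicate 2 and 0.14 with the skeletal muscle covariate. Uhrf1, which guides maintenance methylation to newly copied DNA, had normalized counts of 434, 248 and 406 in WT and of 490.4, 413 and 627 in DTR tendons (log2 fold change 0.49, standard error 0.25, edgeR adjusted p = 0.495). WT replicate 2 was the lowest and DTR replicate 3 the highest library. Chaf1a, the large subunit of the histone chaperone CAF-1, had 496, 417 and 573 in WT and 628, 557 and 565 in DTR tendons (log2 fold change 0.24), and exons of Ubxn6 on the other strand cover 52.5% of its exon length. Chaf1b was fitted at 0.26. E2f1, an activator of S phase genes, had 452, 449.96 and 646 in WT and 667, 597 and 625 in DTR tendons, where WT replicates 1 and 2 were low and WT replicate 3 was within the DTR range (log2 fold change 0.29, standard error 0.17, edgeR adjusted p = 0.535). Without WT replicate 3 it was 0.48, and with the skeletal muscle covariate 0.17.

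Levels of different genes can be set side by side only per length. On the scale of normalized counts per kb of GENCODE M21 exon, the highest WT level was in Pcna (762), followed by Gins4 (707), Rpa1 (504), Pold2 (372) and Orc6 (357), and the DTR levels of these genes were 849, 718, 457, 306 and 395. The lowest WT levels on this scale were in Orc1 (7.32), Mcm10 (13.5), Cdc6 (19.5), Brca1 (22.04) and Brca2 (22.8), with DTR levels of 14.8, 20.4, 25.9, 30.9 and 30.3. On this scale Pcna and Gins4 were thus the highest of the 46 genes and Orc1 the lowest in both groups. The length used was that of the merged exons of all annotated transcripts of a gene, 11.01 kb in Rrm1 and 1.349 kb in Gins4. It can exceed the length of the transcript present, so the ranking depends on this choice, and other lengths were not tried. The genes lowest per kb were all among the 9 with the largest log2 fold changes.

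The libraries of each group were not alike across the 46 genes. The mean log2 level of the 46 genes, set to 0 at the mean of the WT libraries, was 0.094, -0.19 and 0.093 for WT replicates 1 to 3 and 0.27, 0.14 and 0.29 for the DTR replicates. WT replicate 2 stood apart, being the lowest of the 6 libraries in 35 of the 46 genes. DTR replicate 1 was the highest library in 21 genes and DTR replicate 3 in 14. DTR replicates 1 and 3 were each above all WT libraries in 29 of the 46 genes, where 32.7% and 28.4% of all genes tested were, and DTR replicate 2 was in 17 genes, where 28.3% were. The 2 DTR libraries with the higher mean level of replication genes were those with few skeletal muscle transcripts (0.359% and 0.680% of the counts). WT replicate 2, with the lowest mean level, held muscle transcripts at 2.58%, between the other WT libraries, and was the single WT library from a female. Without WT replicate 2 the median log2 fold change of the 46 genes was 0.15. In that fit 27 of the 46 log2 fold changes changed in size by more than 1.5 times or changed sign, all to lower values. Among them were values already below 0 that moved further below it, such as Gins1 (from -0.037 to -0.23). Without DTR replicate 2 the median was 0.28, and 10 genes moved that far, 7 of them to higher and 3 to lower values.

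**Figure D4:**
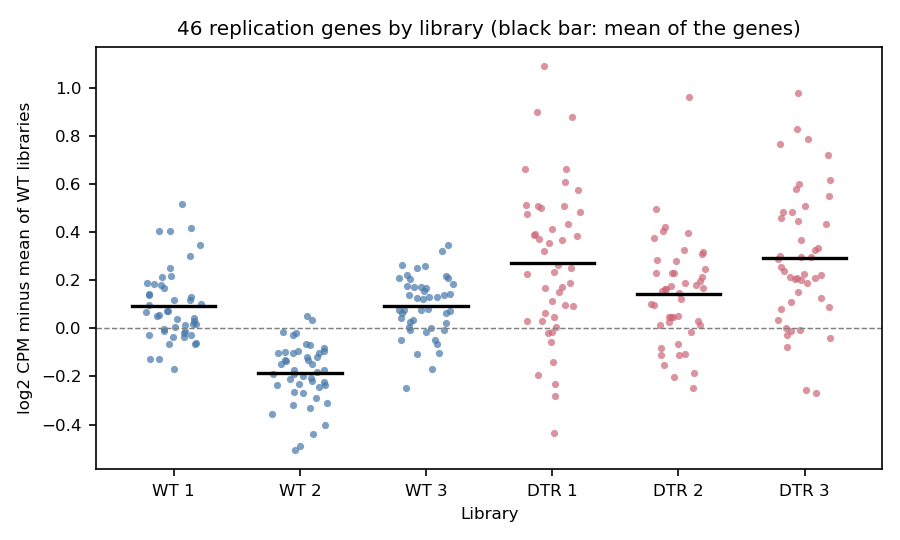
Log2 CPM of each of the 46 genes (points) minus its mean over the WT libraries, by library, with the mean over genes as a black bar. The bars stand at 0.094, -0.19 and 0.093 in WT and at 0.27, 0.14 and 0.29 in DTR replicates 1 to 3, and WT replicate 2 is the lowest.

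The presence of E2F-type letters in the promoter was set beside these values. The 17 genes with such letters in at least 1 promoter were fitted at a median of 0.27, ranging from -0.044 (Pold3) to 1.02 (Orc1), and 4 of them had an unadjusted p under 0.05 with a higher level in DTR tendons, where 5.52% of all genes tested had. The 22 genes without them had a median of 0.20, ranging from -0.28 (Pold2) to 0.60 (Mcm10), with 3 such genes. Both medians were above that of all genes tested, and no test of their difference was made. Of the genes with every DTR library above every WT library, 4 had E2F-type letters in the window (Orc1, Mcm5, Brca2 and Clspn) and 5 did not (Mcm2, Cdc45, Pcna, Rrm1 and Tyms), where 8.96% of all genes tested were so separated. Gins2 and Pole had no promoter in the table.

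A list of 81 other S phase genes, chosen by function, was set beside the 46. All 81 were tested, 65 were fitted higher and 16 lower, and the median log2 fold change was 0.15. At an unadjusted p under 0.05, 10 were higher and 0 lower in edgeR (5.52% and 5.45% of all genes tested). At an adjusted p under 0.05 edgeR called 0, while DESeq2 called 1 higher (Ccna2), where it called 1.12% of all genes higher. In 15 of them every DTR library was above every WT library (background 8.96%) and in 1 (E2f4, log2 fold change -0.11) every one was below (background 7.85%). Hells, a chromatin remodeller needed for DNA methylation, had normalized counts of 337, 255 and 364 in WT and of 422, 553 and 506 in DTR tendons, and here DTR replicate 2 was the highest library (log2 fold change 0.63, standard error 0.18, edgeR adjusted p = 0.353). Topbp1, which helps Cdc45 to join the helicase, had 2510.4, 2464 and 2394 (WT) and 2817, 2808 and 2996 (DTR) (log2 fold change 0.23), and Usp1, a deubiquitinase that acts on Pcna, had 2208, 2125 and 2243 (WT) and 2702, 2682 and 2423 (DTR) (log2 fold change 0.25). The pocket protein Rbl1, a partner of E2F factors, had 564, 491 and 590.2 (WT) and 752, 630.2 and 721 (DTR) (log2 fold change 0.35). Hells, Topbp1, Usp1 and Rbl1 are shown because every DTR library lay above every WT library and the unadjusted p was under 0.05 in edgeR.

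The mitosis genes were set beside the replication genes as the nearest other phase of the cycle. All 30 were fitted higher, with a median log2 fold change of 0.73 against 0.24 for the 46 replication genes, and 17 had an unadjusted p under 0.05 in edgeR (5.52% of all genes tested). At an adjusted p under 0.05, edgeR called 0 of them. Without DTR replicate 2 it called 4, where it called 103 of 17998 genes higher and 441 lower. With all libraries DESeq2 called 6 of them higher (1.12% of all genes), and in 5 every DTR library was above every WT library (8.96%). Their mean log2 level, set to 0 at the mean of the WT libraries, was 0.38, -0.095 and -0.29 in WT and 0.99, 0.13 and 0.91 in DTR replicates 1 to 3. DTR replicate 2 was thus below WT replicate 1 for the mitosis genes and above every WT library for the replication genes. Mki67, a nuclear protein of cycling cells, had normalized counts of 3665, 2397 and 2013 in WT and of 4973, 2580.1 and 4992 in DTR tendons, and Top2a, the topoisomerase that untangles copied chromosomes, had 1825, 1233 and 1106 (WT) and 2894, 1509 and 2631 (DTR). In both genes DTR replicate 2 lay inside the WT range (log2 fold change 0.64 and 0.76, edgeR adjusted p = 0.536 and 0.459). With the skeletal muscle level as a covariate, the median of the mitosis genes was 0.22 and that of the replication genes 0.14. The difference between the lists was not tested.

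**Figure D5:**
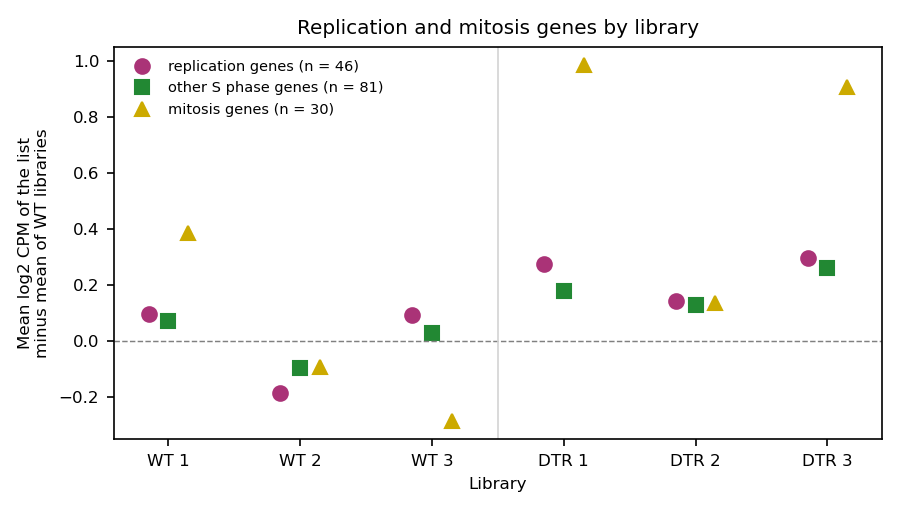
Mean log2 CPM of the replication, other S phase and mitosis genes in each library, minus the mean of the WT libraries. The mitosis genes spread from -0.29 to 0.99 and the replication genes from -0.19 to 0.29, and DTR replicate 2 is above every WT library for the replication and other S phase genes and below WT replicate 1 for the mitosis genes.

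Some of these rows could hold reads of other genes. Exons of other genes cover more than 10% of the exon length of Orc1 (Gm12743, 10.8%), Rfc2 (Lat2, 15.1%), Rfc4 (Eif4a2, 12.7%) and Rfc5 (Wsb2, 10.7%), besides Gins2, Fen1 and Chaf1a, all on the opposite strand. On the same strand, the protein-coding gene Gm49384 covers 8.5% of Pole2, and microRNA genes cover up to 1.99% of Mcm7 and 0.789% of Rpa1. All these shares are of the merged exons of a gene. The listed pseudogenes of Pcna and Tyms held at most 10 counts in any library.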

How the data were processed

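FDL tendons of 3 DTR and 3 WT mice were sequenced in bulk. Per the study's methods the authors trimmed single-end reads with FastP and assigned them to genes by featureCounts, and the deposited counts are whole numbers, not normalized. A second deposited table holds a signal, the normalized counts of DESeq2 (version 1.22.1 per the submitters' processing notes). Within each library it equals the counts over 1 constant, the size factor of DESeq2 (0.973 to 1.06). The aligner, genome build, annotation and strand setting are not given in the sources used here. The sources name 2 library kits, 1 of which marks strand. All count columns were matched to samples by their labels, and 0 columns of other samples were found.

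The 46 genes and all gene lists were chosen with earlier results of these data known. In R 4.3.3, edgeR 4.0.16 fitted a robust quasi-likelihood model with TMM factors and the genotype as the single term to the 17496 of 53819 genes that passed filterByExpr (30758 had a count). Standard errors are the size of the log2 fold change over the root of F. Here p-values were adjusted by Benjamini-Hochberg over all genes tested, with a threshold of 0.05. Normalized counts in the text are TMM-scaled to the mean library size. Alternatives were DESeq2 1.42.0 (17564 genes), limma 3.58.1, other normalizations and filters, the deposited normalized counts as log2(value + 1), covariates for sex, muscle and keratinocyte levels, the replicate number as a block and each library left out in turn. The scripts were tested on simulated data.

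Values by library are given for the genes with the highest mean and the highest and lowest log2 fold change in each group of the 46 and for every one with no overlap (27 of 46 genes). They are also given for other S phase genes with no overlap and an unadjusted p under 0.05, and for Mki67 and Top2a. In the marker lists they are given for defining genes and for those with the highest mean normalized count. A gene that this rule takes is not reported here by name. Further names were chosen after values were seen. Exon lengths, positions and overlaps came from GENCODE M21 (GRCm38) by symbol, and promoters from a RefSeq table. The last 20 bases of 39 of the 45 promoters were found in GENCODE transcripts, 0 of them reversed.

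Depth was between 42744138 and 48854310 counts per library. Replicates of a group differed by a chi-square of 40.1 to 209 per degree of freedom, more than sampling noise gives, so that none was counted as a duplicate and the spread between animals with n = 3 limits the precision. Each library is a separate tendon.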

Additional observations from a re-analysis of the deposited data

How the results depend on the processing

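Under every setting tried, 0 of the 46 replication genes had an adjusted p under 0.05, and their median log2 fold change stayed above 0, between 0.14 (skeletal muscle level as a covariate) and 0.33 (limma-voom with library quality weights). The number higher at an unadjusted p under 0.05 was 9 (5.52% of all genes tested), and it was 17 with library quality weights (7.62%), 18 with the sex of the library as a covariate (6.44%) and 0 with the muscle covariate (3.24%). Leaving out 1 library at a time gave medians from 0.148 to 0.303 and counts from 2 to 11, with the lowest count without WT replicate 2 (2.81% of all genes), 3 without DTR replicate 1 (3.5%) and 5 without DTR replicate 3 (4.12%). The median of the mitosis genes was 0.2226 with the muscle covariate. Without DTR replicate 2, edgeR called 103 genes higher and 441 lower, none of the 46 among them, against 0 with all libraries. Without a filter on low counts it called 45 higher and 38 lower. The causes were not tested.

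Some log2 fold changes changed sign. Gins1 (-0.037) was 0.007162 under limma-voom, 0.127 with quality weights, 0.07013 with sex, 0.01968 with muscle and 0.03337 with keratinocyte level as a covariate, 0.1888 without WT replicate 1 and 0.02709 without DTR replicate 1, with a range of -0.2292 to 0.1888 over the libraries left out. Gins4 (0.023) was -0.003652 with library size scaling, -0.01609 with the keratinocyte covariate and -0.02259 to 0.0587 over the libraries left out, lowest without WT replicate 2. Rfc2 ranged from -0.0005419 (without WT replicate 2) to 0.1104, and with the muscle covariate Rpa1 (-0.14) was 0.001777 and Tk1 (0.31) was -0.1817. Without WT replicate 2, Rfc5 (0.14) was -0.0050 and Fen1 (0.064) was -0.0093.

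With the replicate number as a block (replicate block), the median was 0.25, 12 of the 46 genes were higher at an unadjusted p under 0.05 (5.09% of all genes) and 0 were called. Same-numbered DTR and WT libraries deviated from their group means with correlations of -0.19, -0.15 and -0.68. These values gave no sign that the numbers pair the samples, but with 3 libraries per group they cannot exclude it. Depth was high for most of the 46 genes, but Orc1 had fewer than 60 normalized counts in each library. Precision is limited by 3 tendons per group, which also differed in sex and in muscle and keratinocyte transcripts.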

Other observations

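Regulators of entry into S phase were fitted in both directions. Of 17 genes of E2F and RB factors and G1/S kinases, 11 were fitted higher and 6 lower in DTR tendons, with a median log2 fold change of 0.14, and 3 had an unadjusted p under 0.05 in edgeR, all higher (5.52% of all genes tested). Ccna2, the cyclin of S phase and of entry into mitosis, was chosen after its values were seen because DESeq2 called it. It had normalized counts of 1061, 718 and 781 in WT and of 1587, 985 and 1728 in DTR replicates 1 to 3, so that DTR replicate 2 lay below WT replicate 1 (log2 fold change 0.75, standard error 0.25, edgeR adjusted p = 0.401, DESeq2 adjusted p = 0.0494). E2f4 is a repressor of cell cycle genes in resting cells. It was the 1 gene of the 81 other S phase genes with every DTR library below every WT library, where 7.85% of all genes tested were. It had normalized counts of 1241, 1224 and 1228 in WT and of 1206, 1088 and 1133 in DTR tendons (log2 fold change -0.11, standard error 0.082, edgeR adjusted p = 0.639).

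The other groups of the 81 genes had medians from 0.061 to 0.27, and differences between groups were not tested. Of 15 further repair and checkpoint genes, 13 were fitted higher with a median log2 fold change of 0.27, and in 6 every DTR library was above every WT library (8.96% of all genes tested). The 13 fork protection genes had a median of 0.20 with 10 fitted higher, and the 8 further genes of origin recognition and licensing had a median of 0.11 with 7 fitted higher. The 8 further genes of nucleotide supply had a median of 0.061, where the 4 described above had 0.34. The medians were 0.13 for 8 helicase activation genes, 0.15 for 5 further polymerase genes and 0.20 for 7 further chromatin upkeep genes. Of these, 7, 5 and 6 were fitted higher.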
